A study of Mus musculus with 6 samples.

Results

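Platelet-derived growth factors (PDGFs), vascular endothelial growth factors (VEGFs) and hepatocyte growth factor were followed through 9 genes of cultured lung mesenchymal stromal cells (LMSCs). The 9 genes were set by name, with no threshold on their values, although earlier results of these data were known when they were chosen. They are the PDGF receptors Pdgfra and Pdgfrb, the PDGF ligands Pdgfa, Pdgfb and Pdgfc, the VEGF ligands Vegfa, Vegfb and Vegfc, and Hgf. All 9 were among the 34745 genes listed, and 7 of them were among the 10279 genes that averaged 1 FPKM or more (fragments scaled by gene length and library total), which were the genes tested. Pdgfb and Hgf fell below that mean and are described by their values.

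The cells came from MMTV-PyMT mice, in which a viral promoter active in the mammary gland drives the polyoma middle T oncogene, so that mammary tumors form and spread to the lung. Libraries of RNA were made at 3 tumor stages, 2 per stage: the adenoma stage (A-LMSCs, labelled E-LMSCs, mice of 6 to 7 weeks), the pre-metastatic stage of early carcinoma (PM-LMSCs, labelled L-LMSCs, 9 to 10 weeks) and the metastatic stage (M-LMSCs, 13 to 14 weeks). All groups carry the transgene, all were cultured to passage 3 in serum-containing medium after CD45-positive cells had been depleted, and no wild-type library was analysed here. The study describes 3 mice per stage and slightly older ages for the first 2 stages. The third library per stage was not used here, age and tumor stage cannot be told apart, and p-values measure only the spread between these libraries.

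PDGF ligands are secreted dimers that bind the receptor tyrosine kinases PDGFRα and PDGFRβ, which drive the growth and migration of fibroblasts and pericytes. VEGF ligands act mainly on endothelial receptors, VEGF-A and VEGF-B on those of blood vessels and VEGF-C on that of lymphatic vessels, and stromal cells are a known source of them. Hepatocyte growth factor is made by mesenchymal cells and acts on epithelial cells through the receptor MET. In the lung, PDGFRα marks interstitial fibroblasts, and PDGFRβ pericytes and other mesenchymal cells.

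The depths implied by the spacing of the values were 20.8 and 17.5 mega-fragments in A-LMSCs, 14.8 and 15.9 mega-fragments in PM-LMSCs and 16.5 and 16.6 mega-fragments in M-LMSCs, the lowest totals being those of PM-LMSCs. The fibroblast markers summed to between 2646 and 4228 FPKM, and all 10 reached a mean of 1 FPKM. Of 10 mural markers, Acta2 and Tagln were abundant (4986 to 6311 and 2761 to 3569 FPKM), Des, Myh11, Cspg4 and Mcam were at 6.22 to 311 FPKM and Notch3 at 0.788 to 1.47 FPKM, whereas Rgs5, Kcnj8 and Abcc9 stayed at or below 0.286 FPKM. The endothelial genes Pecam1 (0.0134 to 0.0337 FPKM) and Cdh5 (0.0605 to 0.265 FPKM) were close to 0. Among haematopoietic markers the pan-leukocyte gene Ptprc was also close to 0 (0.0254 to 0.0987 FPKM), but the myeloid genes Lyz2 (60.6 to 362 FPKM), Tyrobp (3.12 to 13.1 FPKM), Cd68 (5.48 to 12.2 FPKM) and Cd14 (4.76 to 10.1 FPKM) were detected in all 6 libraries. The 8 mesothelial markers summed to between 120 and 495 FPKM, and the 12 epithelial markers to between 16.5 and 29.2 FPKM. The cultures thus carried fibroblast, smooth muscle-type, mesothelial and some myeloid transcripts, with these endothelial markers near 0.

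Upstream sequences are shown for a pair of members that stood apart in different stages, Pdgfra, lowest in PM-LMSCs, and Vegfb, highest in A-LMSCs. Each run is the 250 bases before the start site in the RefSeq promoter table (build GRCm38.p6), 5′ to 3′ on the gene's strand. Capitals mark the GC box, GGGCGG on either strand, written as CCGCCC where it lies on the other strand. Pdgfra is at chr5:75152001-75152250 on the plus strand and Vegfb at chr19:6987652-6987901 on the minus strand.
Pdgfra: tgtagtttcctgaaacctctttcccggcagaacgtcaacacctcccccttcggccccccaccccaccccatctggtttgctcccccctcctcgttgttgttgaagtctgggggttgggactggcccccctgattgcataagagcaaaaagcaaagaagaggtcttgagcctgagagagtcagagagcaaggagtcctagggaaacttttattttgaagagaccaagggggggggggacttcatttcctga
Vegfb: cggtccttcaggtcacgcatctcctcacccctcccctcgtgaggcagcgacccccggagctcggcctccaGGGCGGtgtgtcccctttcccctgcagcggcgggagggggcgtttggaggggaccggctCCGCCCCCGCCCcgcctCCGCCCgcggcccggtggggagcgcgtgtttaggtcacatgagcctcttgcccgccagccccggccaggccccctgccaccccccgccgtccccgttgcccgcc
The Vegfb stretch held 4 GC boxes between 98 and 174 bases before the start, and the Pdgfra stretch held 0. GC content was 76.4% for Vegfb and 54.4% for Pdgfra, against a median of 52.4% over all 32851 promoter entries. A GC box was present in 32.7% of those entries. Among the 10 entries of 7 members, the GC box was also found once or more in both entries of Pdgfa, in both of Vegfa and in that of Vegfc, and in none of those of Pdgfc and Hgf. The hypoxia response core ACGTG, searched on both strands, was in 16.6% of all entries and in 1 member entry, that of a downstream start of Vegfa. The AP-1 site TGANTCA (6.75% of entries) and the TATA box TATAAA (12.4%) were in 0 of the 10. These matches are descriptions of the letters only.

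The PDGF receptors differed in level by about an order of magnitude and had the same profile over the stages. Pdgfra (ENSMUSG00000029231, chr5:75152292-75198215, GRCm38) was at 9.11 and 9.67 (A-LMSCs), 6.31 and 6.69 (PM-LMSCs) and 8.60 and 9.50 FPKM (M-LMSCs), from 1396 to 2842 implied fragments. Both PM-LMSC libraries lay below the other 4, which overlapped, and 6.05% of all tested genes had that pattern. The stage means were 9.39 ± 0.397, 6.50 ± 0.269 and 9.05 ± 0.640 FPKM (SD, n = 2 each).

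Pdgfrb (ENSMUSG00000024620), the receptor of pericytes and myofibroblasts, was at 89.1 and 80.5 (A-LMSCs), 61.1 and 68.9 (PM-LMSCs) and 87.0 and 83.2 FPKM (M-LMSCs). Again the PM-LMSC pair was the lowest, while the A-LMSC and M-LMSC libraries interleaved. Its stage means were 84.8 ± 6.08, 65.0 ± 5.56 and 85.1 ± 2.71 FPKM (SD, n = 2 each), on 6940 to 14276 implied fragments per library.

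Expressed as a difference on the log2(FPKM + 1) scale, PM-LMSCs differed from A-LMSCs by -0.47 (SE 0.11, 95% interval -0.74 to -0.20) for Pdgfra and by -0.38 (SE 0.12, interval -0.66 to -0.10) for Pdgfrb. The ratio of mean FPKM was 0.693 for Pdgfra and 0.767 for Pdgfrb. In limma's fit the unadjusted p was 0.00509 for Pdgfra, which ranked 115 of 10279 genes, and 0.0150 for Pdgfrb, which ranked 277. Neither passed after Benjamini-Hochberg adjustment over all genes tested, with limma adjusted p of 0.449 and 0.552. With the replicate number as a block the adjusted p was 0.118 for Pdgfra and 0.215 for Pdgfrb, so the call was the same.

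From PM-LMSCs to M-LMSCs the difference had the opposite sign, 0.42 (SE 0.11) for Pdgfra and 0.39 (SE 0.12) for Pdgfrb, with limma adjusted p of 0.376 and 0.412. Between M-LMSCs and A-LMSCs the log2 difference was -0.049 (interval -0.32 to 0.22) for Pdgfra and 0.0069 (interval -0.27 to 0.28) for Pdgfrb. The ratio of Pdgfrb to Pdgfra, on a scale of fragments per kilobase of merged exons, ranged from 7.82 (A-LMSC replicate 2) to 9.68 (PM-LMSC replicate 2) and did not separate the stages. Over the 6 libraries log2(FPKM + 1) of the receptors correlated at r = 0.893, a description over libraries that share their depth and stage.

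**Figure D1:**
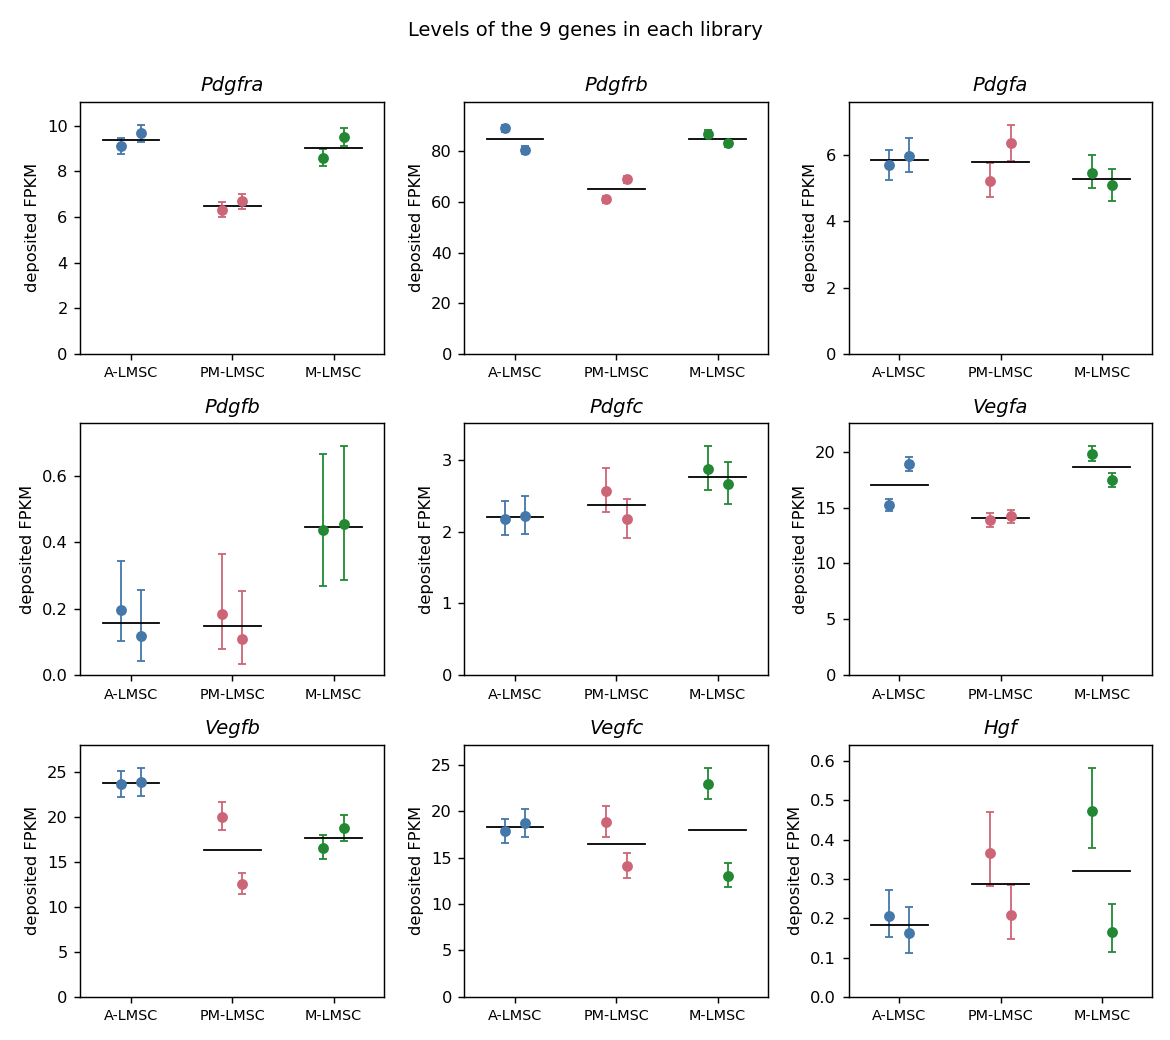
Deposited FPKM (vertical axis, from 0) of each of the 9 genes in the 6 libraries, with 1 panel per gene and the stages on the horizontal axis. Points are libraries (replicate 1 left, replicate 2 right), bars on points are 95% Poisson intervals of the implied fragments, which cover counting error only, and black lines are stage means (n = 2). Pdgfra, Pdgfrb and Vegfa have their PM-LMSC pair lowest, Vegfb has its A-LMSC pair highest, and Pdgfb and Pdgfc have their M-LMSC pair highest.

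Among the PDGF ligands, Pdgfa and Pdgfc varied little and Pdgfb was close to the detection limit. Pdgfa (ENSMUSG00000025856, chr5:138976014-138997370), which encodes the chain whose homodimer binds PDGFRα, was at 5.70 and 5.99 (A-LMSCs), 5.22 and 6.35 (PM-LMSCs) and 5.48 and 5.09 FPKM (M-LMSCs). Its PM-LMSC libraries were the second lowest and the highest of the 6, so that they enclosed both A-LMSC values. M-LMSCs lay below A-LMSCs in both libraries, as in 24.4% of all tested genes, by a log2 difference of -0.12 (interval -0.43 to 0.19, limma adjusted p = 0.664).

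Pdgfc (ENSMUSG00000028019, chr3:81036416-81214040) encodes a ligand that needs proteolytic removal of a CUB domain before it can bind a receptor. It was at 2.17 and 2.22 (A-LMSCs), 2.56 and 2.17 (PM-LMSCs) and 2.87 and 2.66 FPKM (M-LMSCs), on 255 to 351 implied fragments. Both M-LMSC values were above the other 4, a pattern that 11.8% of all tested genes had. The log2 difference of M-LMSCs from A-LMSCs was 0.24 (interval -0.049 to 0.52), with a limma adjusted p of 0.410.

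Pdgfb (ENSMUSG00000000489, chr15:79995874-80014977) encodes the chain that recruits pericytes to vessels and is made mainly by endothelial cells, platelets and macrophages. It had 12 and 6 implied fragments in A-LMSCs, 8 and 5 in PM-LMSCs and 21 and 22 in M-LMSCs, that is 0.197 and 0.117, 0.186 and 0.108, and 0.435 and 0.454 FPKM. The M-LMSC pair was above the other 4 libraries, a pattern that 11.8% of tested genes had, although Pdgfb was not among the genes tested. The 95% Poisson interval of M-LMSC replicate 1 (0.269 to 0.665 FPKM) overlapped that of A-LMSC replicate 1 (0.102 to 0.345 FPKM). Both M-LMSC intervals (lower ends 0.269 and 0.285 FPKM) overlapped those of replicate 1 in A-LMSCs and PM-LMSCs. They lay above those of replicate 2, which ended at 0.256 FPKM (A-LMSCs) and 0.252 FPKM (PM-LMSCs). In a fit with voom weights on the implied fragments of the 14632 genes averaging 0.1 FPKM or more, added after seeing the data, M-LMSCs were above A-LMSCs by 1.48 on the log2 scale (SE 0.43, interval 0.46 to 2.49). That difference did not pass the threshold in limma's voom fit (adjusted p = 0.199, and 0.0981 with the replicate block), in which 0.0478% of genes were called without the block and 5.47% with it.

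The list of haematopoietic markers moved in the same direction as Pdgfb, and so did genes of other marker lists. In replicates 1 and 2, its 12 genes summed to 137 and 128.5 (A-LMSCs), 173 and 79.7 (PM-LMSCs) and 412 and 299.6 FPKM (M-LMSCs), replicate 1 being higher in each stage, with most of the sum from the macrophage lysozyme gene Lyz2. All 7 of its tested genes exceeded their A-LMSC level in M-LMSCs at an unadjusted p under 0.05, beside 14.6% of all tested genes in either direction. limma called 0 of them, or 6 with the replicate block, beside 3.92% of all tested genes. Ptprc stayed at or below 0.0987 FPKM in all 6 libraries. Of 10 fibroblast markers, 4 rose from A-LMSCs to M-LMSCs at an unadjusted limma p under 0.05 and 0 fell, with 2 called under the replicate block. Of 3 tested epithelial markers, 2 rose and 1 (Krt19) fell in that comparison at the same threshold. limma called Krt19 there, beside 0.0681% of all tested genes, and all 3 with the replicate block. Of 7 tested mesothelial markers, a list that also holds Krt19, 5 rose and 1 fell, with 5 and 1 called under the block. Epcam, an untested epithelial marker, was at 0 FPKM in A-LMSCs and PM-LMSCs and at 0.326 and 0.473 FPKM in M-LMSCs. In cultures measured in bulk, more cells of a type and more RNA per cell cannot be told apart. The part of any of these lists in the Pdgfb values was not tested.

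By mean FPKM, the VEGF genes were the most abundant of the 7 ligand genes. Vegfa (ENSMUSG00000023951, chr17:46016993-46032369), the main angiogenic ligand, was at 15.2 and 18.9 (A-LMSCs), 13.9 and 14.2 (PM-LMSCs) and 19.8 and 17.4 FPKM (M-LMSCs). The PM-LMSC pair was again the lowest, but A-LMSC replicate 1 was closer to it than to A-LMSC replicate 2. M-LMSCs exceeded PM-LMSCs by a log2 difference of 0.38 (SE 0.14, interval 0.054 to 0.71, limma adjusted p = 0.499), and PM-LMSCs differed from A-LMSCs by -0.25 (interval -0.58 to 0.072, limma adjusted p = 0.840). The latter difference was -0.11 without A-LMSC replicate 2 and -0.40 without A-LMSC replicate 1.

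Vegfb (ENSMUSG00000024962, chr19:6982473-6987651), a ligand of VEGFR1, had the largest range of the tested members, 0.88 on the log2 scale, a range at or above that of 91.5% of tested genes. Its values were 23.6 and 23.8 (A-LMSCs), 20.0 and 12.5 (PM-LMSCs) and 16.6 and 18.7 FPKM (M-LMSCs). Both A-LMSC libraries were above the 4 later ones, as in 10.7% of tested genes, and the pair of PM-LMSC libraries spanned the M-LMSC values. The mean of both later stages differed from A-LMSCs by -0.48 (SE 0.18, interval -0.91 to -0.054), with a limma adjusted p of 0.404 (0.176 with the replicate block). The difference of PM-LMSCs from A-LMSCs was -0.55, and it was -0.24 without PM-LMSC replicate 2 and -0.87 without PM-LMSC replicate 1.

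The sum of the 8 mesothelial markers also separated A-LMSCs from the later stages, in the opposite direction to Vegfb. It was 120 and 178 (A-LMSCs), 296 and 413 (PM-LMSCs) and 197 and 495 FPKM (M-LMSCs), with Upk1b its largest part. Single markers did not all do so. Krt19 was lower in the later stages, as Vegfb was. Msln overlapped, at 12.6 FPKM in M-LMSC replicate 1 and 12.7 FPKM in A-LMSC replicate 2. Of the 7 tested, 6 were higher and 1 (Krt19) lower in both later stages than in A-LMSCs at an unadjusted p under 0.05. limma called Krt19 there, beside 0.126% of all tested genes, and with the replicate block all 7, beside 2.05%. Whether these cells or transcripts take part in the Vegfb values was not tested.

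Vegfc (ENSMUSG00000031520, chr8:54077606-54187096), the lymphatic ligand, was at 17.8 and 18.7 (A-LMSCs), 18.8 and 14.1 (PM-LMSCs) and 22.9 and 13.0 FPKM (M-LMSCs). The highest and the lowest of the 6 values were both from M-LMSCs, and the stages overlapped throughout. In PM-LMSCs and in M-LMSCs replicate 1 was above replicate 2, whereas in A-LMSCs replicate 2 was slightly above. The stage differences were between -0.16 and 0.084 on the log2 scale. Across the comparisons the lowest interval end was -0.77 and the highest 0.70, and differences inside each interval were not excluded.

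Hgf (ENSMUSG00000028864, chr5:16553495-16620152) was present at 31 to 88 implied fragments per library. Its level was 0.205 and 0.163 (A-LMSCs), 0.367 and 0.207 (PM-LMSCs) and 0.473 and 0.166 FPKM (M-LMSCs). In every stage replicate 1 was above replicate 2. M-LMSCs overlapped with both other stages, while both PM-LMSC values were above both A-LMSC values, the nearest by 0.207 against 0.205 FPKM, a pattern that 19.6% of tested genes had. The voom fit gave a log2 difference of 0.61 (SE 0.53) between M-LMSCs and A-LMSCs, with an adjusted p of 0.622. With the replicate block that difference was 0.77 (SE 0.33), with a limma voom adjusted p of 0.201.

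**Figure D2:**
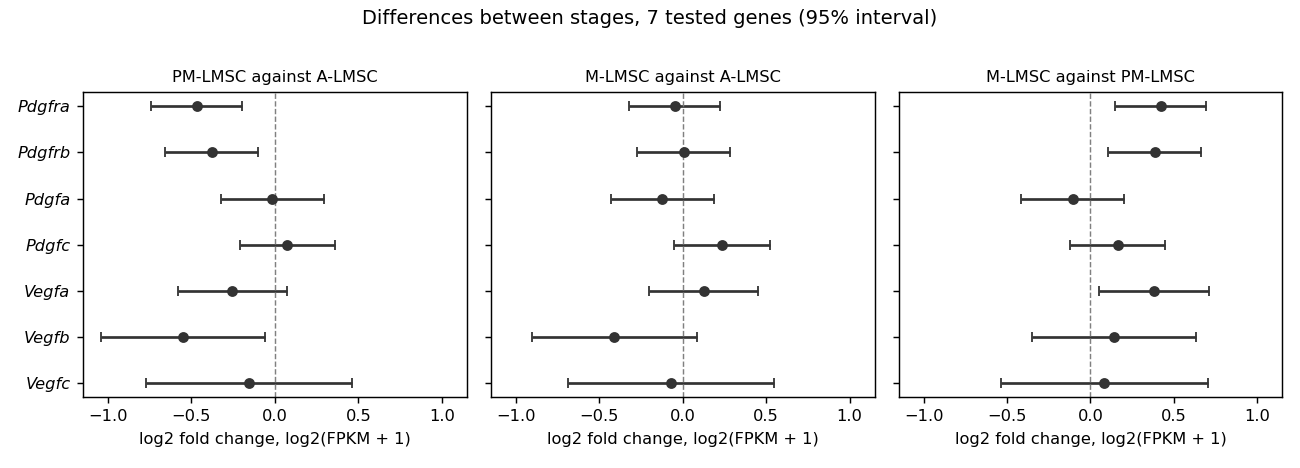
Differences between stages on the log2(FPKM + 1) scale (horizontal axis) for the 7 tested genes (vertical axis), with 1 panel per pair of stages. Points are limma's estimates, bars are their unadjusted 95% intervals, and the dashed line is at 0. The intervals of Pdgfra, Pdgfrb and Vegfb are below 0 for PM-LMSCs against A-LMSCs, those of Pdgfra, Pdgfrb and Vegfa are above 0 for M-LMSCs against PM-LMSCs, and all 7 include 0 for M-LMSCs against A-LMSCs.

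Across the members, 0 of 7 were called by limma in each of the 4 comparisons. The share called among all tested genes was 0.0389% for PM-LMSCs against A-LMSCs, 0.0681% for M-LMSCs against A-LMSCs, 0.0292% for M-LMSCs against PM-LMSCs and 0.126% for both later stages against A-LMSCs. At an unadjusted p under 0.05, 3 members (Pdgfra, Pdgfrb and Vegfb) had lower values in PM-LMSCs than at the adenoma stage, where 2.61% of tested genes did. In M-LMSCs against PM-LMSCs, 3 (Pdgfra, Pdgfrb and Vegfa) were higher, where 4.48% of tested genes were, and these comparisons share the PM-LMSC libraries. For M-LMSCs against A-LMSCs the number was 0, beside 14.6% of tested genes in either direction, and for both later stages against A-LMSCs 2 (Pdgfra and Vegfb) were lower, beside 4.79%. With the replicate block, with voom weights and with both, 0 of 7 were called in any comparison, although the block raised the share of all genes called to 0.292%, 3.92%, 0.418% and 2.05% in the same order.

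Libraries were also compared without a model. Both PM-LMSC libraries were below the other 4 in 3 of the 7 tested members (Pdgfra, Pdgfrb and Vegfa), beside 6.05% of all tested genes, and above the other 4 in 0 of the 7, beside 4.26%. The median log2 difference of the 7 members between PM-LMSCs and A-LMSCs was -0.26, beside 0.011 over all tested genes. For M-LMSCs against A-LMSCs it was -0.049, beside 0.027, and for M-LMSCs against PM-LMSCs 0.16, beside -0.0024. The PM-LMSC libraries were also those of the lowest implied depth, and the part of depth in these values was not tested.

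Ordering the members by level depended on the length by which fragments were divided. The deposited values implied, for 63.7% of genes checked, a length that adds up every distinct exon of every transcript, so that overlapping exons count repeatedly. Dividing the same fragments by merged exons, in which each base counts once, placed Pdgfrb first at 85.7 to 125 merged-exon FPKM over the 6 libraries. Vegfa followed at 33.6 to 48.0, Vegfb at 16.8 to 32.0, Vegfc at 10.0 to 17.6, Pdgfra at 9.42 to 14.4 and Pdgfa at 8.52 to 10.6 merged-exon FPKM. Pdgfc was at 3.15 to 4.17, Hgf at 0.254 to 0.740 and Pdgfb at 0.0756 to 0.319 merged-exon FPKM.

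Neighbours whose ranges overlapped on the merged-exon scale were Vegfb and Vegfc, Vegfc and Pdgfra, Pdgfra and Pdgfa, and Hgf and Pdgfb. Pdgfrb, Vegfa and Pdgfc did not overlap with their neighbours. On the deposited scale the ranges of the 3 VEGF genes overlapped one another, with Vegfb first by the mean (19.2 FPKM), then Vegfc (17.6 FPKM) and Vegfa (16.6 FPKM). Vegfa moved from the fourth place to the second because its implied length was 2.42 times its merged exons. The ratio of Vegfa to Vegfb was 0.645 to 1.20 over the libraries on the deposited scale and 1.16 to 2.16 on the merged-exon scale. The implied lengths of Pdgfb, Vegfa and Vegfc did not match the exon sum of the GENCODE M21 annotation, so the merged-exon levels of these 3 rest on an annotation other than that of the authors.

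**Figure D3:**
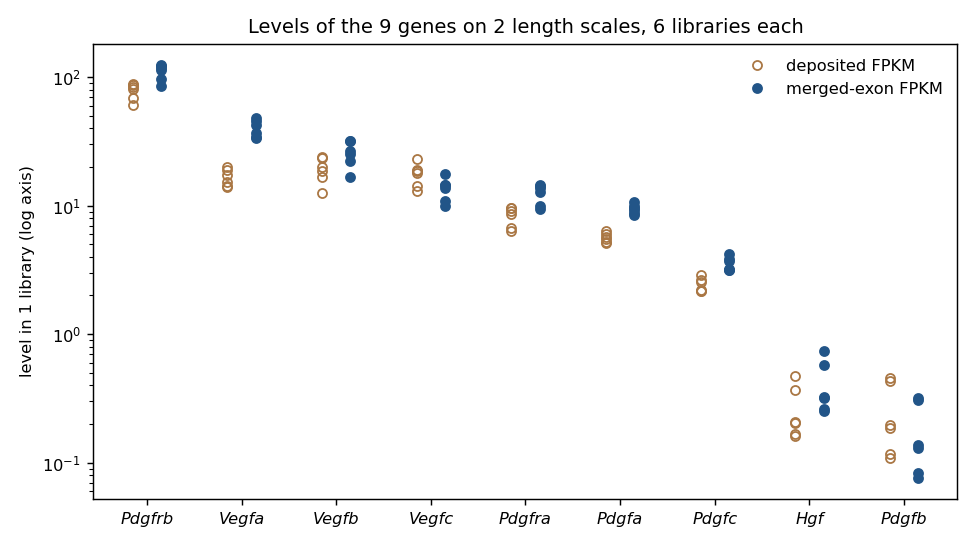
Level of each of the 9 genes in each of the 6 libraries, on a log axis in FPKM, as deposited (open brown circles) and divided by merged exons (filled blue circles). Vegfa, Pdgfrb, Vegfb, Pdgfra, Pdgfa, Pdgfc and Hgf are higher on the merged-exon scale, Vegfc and Pdgfb are lower, and only on the merged-exon scale do the 6 Vegfa values clear those of Vegfb.

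Overlapping annotation limits some values. Exons of Pdgfra, Pdgfa and Pdgfc overlap transcripts on the opposite strand (Gm42802 and Gm42803, 6330403L08Rik and Gm16000), Mir7025 lies within Pdgfra exons on the same strand, and exons of Hgf overlap Gm43489 on its own strand. Whether the authors counted by strand is not given in the sources used here, so reads of these pairs cannot be told apart. Near-identical stretches elsewhere among annotated transcripts were found only in such overlapping transcripts, the longest of 484 bases for Hgf.

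Genes of the same pathways were taken from 5 lists with 78 genes, of which 71 were tested. limma called 0 of the 71 in each of the 4 comparisons, and voom weights also gave 0. At an unadjusted p under 0.05, 5 were higher and 6 lower in PM-LMSCs than in A-LMSCs, 12 higher and 4 lower in M-LMSCs against A-LMSCs, and 10 higher and 3 lower in M-LMSCs against PM-LMSCs. These were 15.5%, 22.5% and 18.3% of the 71, beside 6.53%, 14.6% and 8.94% of all tested genes. With the replicate block, 6 genes passed for M-LMSCs against A-LMSCs, of which 4 were higher (Kdr, Spint2, Cblb and Epas1) and 2 lower (Egln3 and Fosl1). Under the block 3 passed for both later stages against A-LMSCs (Spint2 and Pcsk6 higher, Egln3 lower) and 0 in either comparison of PM-LMSCs. The 6 and 3 of 71 stand beside 3.92% and 2.05% of all tested genes. With voom weights and the block together, 9 passed for M-LMSCs against A-LMSCs, 6 for both later stages, and 1 in each comparison of PM-LMSCs (Egln3 lower than in A-LMSCs, and Plat higher in M-LMSCs). That fit called 5.94% of all genes for M-LMSCs against A-LMSCs, 3.24% for both later stages, 0.905% for PM-LMSCs against A-LMSCs and 0.788% for M-LMSCs against PM-LMSCs.

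Other ligands and receptors numbered 12, of which 11 were tested, all but Mst1. The largest spread within the list was in Pgf, placental growth factor, at 12.7 and 14.8 (A-LMSCs), 17.3 and 16.9 (PM-LMSCs) and 11.8 and 5.22 FPKM (M-LMSCs). Its M-LMSC pair was below its A-LMSC pair, as in 24.4% of tested genes. The log2 difference of M-LMSCs from PM-LMSCs was -1.02 (SE 0.31, limma adjusted p = 0.417).

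The tyrosine kinase receptors of the VEGF ligands were low. Kdr, the main signalling receptor of VEGF-A, was at 1.11 and 1.17 (A-LMSCs), 1.31 and 1.44 (PM-LMSCs) and 2.23 and 2.31 FPKM (M-LMSCs). The values of the stages did not overlap, and 11.8% of tested genes had their M-LMSC pair above the other 4 libraries. The log2 difference between M-LMSCs and A-LMSCs was 0.61 (SE 0.11), with a limma adjusted p of 0.0998 and of 0.0285 with the replicate block. Flt1 was at 1.71 to 2.69 FPKM and Flt4 at 2.44 to 3.79 FPKM. M-LMSCs overlapped with A-LMSCs in both genes. The PM-LMSC pair lay above the A-LMSC pair in Flt1, as in 19.6% of tested genes. In Flt4 it lay above the other 4 libraries, as in 4.26% of tested genes. The co-receptors Nrp1 (13.6 to 20.8 FPKM) and Nrp2 (10.1 to 14.2 FPKM) were higher on the deposited scale. Of 10 endothelial markers only Esam reached a mean of 1 FPKM.

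Figf, which encodes VEGF-D and is listed under that older symbol, was at 19.6 to 31.9 FPKM, and Pdgfd at 1.99 to 4.11 FPKM. Pdgfrl, a PDGF receptor-like gene, was at 14.3 and 13.5 (A-LMSCs), 10.5 and 13.9 (PM-LMSCs) and 19.4 and 20.7 FPKM (M-LMSCs). The M-LMSC pair was the highest, as in 11.8% of tested genes. Its log2 difference from A-LMSCs was 0.50 (SE 0.15, limma adjusted p = 0.216, and 0.0815 with the replicate block). Met, the receptor of hepatocyte growth factor, was at 1.38 to 2.12 FPKM and overlapped between stages.

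**Figure D4:**
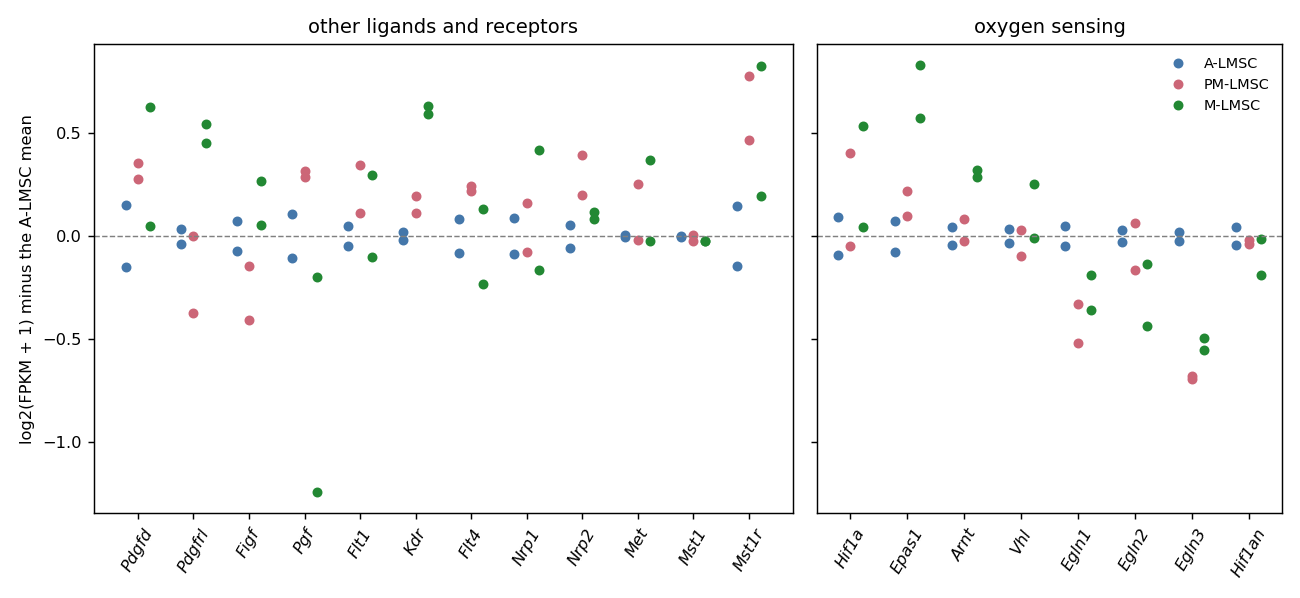
log2(FPKM + 1) of each library minus the mean of the A-LMSC libraries (vertical axis) for 12 other ligands and receptors (left) and 8 oxygen-sensing genes (right), 1 point per library, colored by stage. Kdr, Pdgfrl and Epas1 have their M-LMSC pair highest, Pgf has its M-LMSC pair lowest, and Egln3 is lower in all 4 later libraries than in A-LMSCs.

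Genes that process or bind the ligands were tested in 11 of 17 cases. Spint2, an inhibitor of the proteases that activate hepatocyte growth factor, was at 2.27 and 2.90 (A-LMSCs), 5.29 and 6.95 (PM-LMSCs) and 4.76 and 9.01 FPKM (M-LMSCs). The PM-LMSC pair lay above the A-LMSC pair, as in 19.6% of tested genes. For both later stages against A-LMSCs the log2 difference was 1.04 (SE 0.23, limma adjusted p = 0.210, and 0.0219 with the replicate block). Pcsk6, a proprotein convertase, measured 5.96 and 6.18 FPKM at the adenoma stage and 7.78 to 12.9 FPKM in the later libraries, with adjusted p of 0.260 and, with the block, 0.0499. The activators Hgfac and Hpn stayed at or below 0.0404 FPKM. Of the same list, St14 stayed at or below 0.363 FPKM, whereas Plat was at 10.4 to 28.6 FPKM and Plau at 17.8 to 27.8 FPKM.

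Oxygen-sensing genes include the regulators of hypoxia-inducible factors, for which Vegfa is a known target. Egln3, a prolyl hydroxylase, was at 19.1 and 18.5 (A-LMSCs), 11.4 and 11.3 (PM-LMSCs) and 13.1 and 12.5 FPKM (M-LMSCs). Both A-LMSC values were above the 4 later ones, as in 10.7% of tested genes. The log2 difference between both later stages and A-LMSCs was -0.60 (SE 0.088), with a limma adjusted p of 0.121 and of 0.0297 with the replicate block. Egln1 had the same order of stages (32.2 to 34.5, 23.0 to 26.3 and 25.8 to 29.1 FPKM), at an adjusted p of 0.300 for the same comparison.

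Epas1, which encodes HIF-2α, was at 0.813 and 1.01 (A-LMSCs), 1.22 and 1.04 (PM-LMSCs) and 2.39 and 1.84 FPKM (M-LMSCs). The difference between M-LMSCs and A-LMSCs was 0.70 on the log2 scale (SE 0.14, limma adjusted p = 0.114, and 0.0377 with the replicate block). Hif1a was at 25.7 to 40.3 FPKM and overlapped between stages. Vegfa, with its lowest pair in PM-LMSCs, shared its lowest stage with Egln3 and, on the mean, with Egln1, whose PM-LMSC and M-LMSC values overlapped. It did not share it with Epas1, for which A-LMSCs were lowest on the mean. The mean of Vegfa was 18.6 FPKM in M-LMSCs and 17.0 FPKM in A-LMSCs. In Egln1 and Egln3 the M-LMSC pair was below the A-LMSC pair, as in 24.4% of tested genes. No stage difference of Vegfa was called, and the part of oxygen sensing in the Vegfa values was not tested.

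Signal transducers next to the receptors were all expressed, with 20 of 20 tested. Cblb, a ubiquitin ligase of receptor tyrosine kinases, was at 4.74 and 4.35 (A-LMSCs), 7.23 and 5.61 (PM-LMSCs) and 7.40 and 6.69 FPKM (M-LMSCs). Its PM-LMSC pair lay above its A-LMSC pair, as in 19.6% of tested genes. For M-LMSCs against A-LMSCs the log2 difference was 0.54 (limma adjusted p = 0.186, and 0.0495 with the replicate block). The median of the 20 genes was 0.12 for M-LMSCs against A-LMSCs, beside 0.027 over all tested genes.

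Early and feedback genes induced by growth factors were tested in 21 of 21 cases. Fosl1, which encodes the AP-1 subunit FRA-1, was at 32.9 and 31.1 (A-LMSCs), 31.0 and 29.3 (PM-LMSCs) and 19.9 and 19.5 FPKM (M-LMSCs). Its M-LMSC pair was below its A-LMSC pair, as in 24.4% of tested genes. The log2 difference of M-LMSCs from A-LMSCs was -0.68 (SE 0.10, limma adjusted p = 0.0875, and 0.0219 with the replicate block). Spry2, an inhibitor of receptor tyrosine kinase signalling, was at 39.1 and 40.6 (A-LMSCs), 33.2 and 31.8 (PM-LMSCs) and 46.6 and 39.4 FPKM (M-LMSCs). The PM-LMSC pair was lowest there too, as for Pdgfra and Pdgfrb and as in 6.05% of tested genes, with a limma adjusted p of 0.753 against A-LMSCs. The list did not move as 1 set. Against the A-LMSC pair, the PM-LMSC pair was also lower in Spry1 and Dusp1, for example, but higher in Spry4, Dusp5 and Dusp6. The median of the 21 genes was 0.045 in that comparison, beside 0.011 over all tested genes.

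The genes most like the 3 members of largest range were found by the Pearson correlation of log2(FPKM + 1) over the 6 libraries, as a description. For Vegfb they were Trim8 (r = 0.990), Tmem158 (0.989) and Foxk2 (0.985), each highest in the A-LMSC pair and lowest in PM-LMSC replicate 2. For Vegfc they were Bcor (0.998), Klf6 (0.993) and 4833439L19Rik (0.993), which all had M-LMSC replicate 1 highest and M-LMSC replicate 2 lowest. For Pdgfra they were Rasa3 (r = 0.994), Cyth3 (0.994) and Eno2 (0.992), whose PM-LMSC pairs were below the other 4 libraries. Eno2 was at 1.65 and 1.77 FPKM in PM-LMSCs and at 3.83 to 4.57 FPKM elsewhere. With 6 libraries, 22 to 29 tested genes reached r above 0.95 with each of these members.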

How the data were processed

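RNA-seq of 6 LMSC libraries, 2 per stage, was analyzed. The authors deposited FPKM per gene and library. The submitters' processing notes name TopHat2 2.0.9 and mm10, and the counting tool and annotation are not given in the sources used here. In 99.98% of the tested genes the 6 values were whole fragments (within 0.005) at 1 length, which gave each library's depth and each gene's implied fragments. All 6 columns of values were used, and 0 were left out.

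The 10279 genes that averaged 1 FPKM or more were fitted as log2(FPKM + 1) with limma 3.58.1 in R 4.3.3 (eBayes with trend, 1 mean per stage), Benjamini-Hochberg adjusted over all genes, with a threshold of 0.05. The difference for both later stages is the mean of PM-LMSCs and M-LMSCs minus A-LMSCs. The scale understates changes of low genes. The members and lists were chosen with earlier results of these data known. Named genes were the members, the list genes and, for the 3 tested members of largest range, the 3 genes of highest r. Alternatives were a pseudocount of 0.1, no filter, quantile normalization, median centering, only the stages compared, no trend, a log2 fold change of at least 1, the replicate block and each library left out; voom weights were added after seeing the data. The labels give only replicate numbers, but deviations from the stage mean correlated between same-numbered libraries at 0.238, 0.307 and 0.491 for the 3 pairs of stages. The numbers were treated as pairing only in the fits with the replicate block. The main fit left the numbers out, so its intervals and p-values are unpaired. The labels do not say what equal numbers share, so results with the block rest on an assumed pairing. Fits were tested on simulated data. Coordinates and merged exons came from GENCODE M21 (GRCm38), in which 34267 identifiers were found and 478 were not, and copies were searched with blastn 2.17.0 (at least 95% identity over 200 bases). Intervals on single libraries are exact Poisson and cover counting error only.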

Additional observations from a re-analysis of the deposited data

How the results depend on the processing

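The number of the 7 tested members past the threshold was 0 in all 4 comparisons under every alternative run. Of 413 alternative values of their log2 differences, 397 kept the sign of the reported one and 16 did not. With the replicate block, which treats equal numbers as a pairing, the smallest member adjusted p was 0.118 (Pdgfra, PM-LMSCs against A-LMSCs, log2 difference -0.47), and it changed no member's call. Over all alternatives the smallest was 0.0617, for the same gene and comparison with limma's voom weights and the block. The counts of all genes called moved from 4, 7, 3 and 13 to 30, 403, 43 and 211 under the block and to 93, 610, 81 and 333 with voom weights and the block (PM-LMSCs and M-LMSCs against A-LMSCs, M-LMSCs against PM-LMSCs, both later stages). Without M-LMSC replicate 1 or 2 they were 28 and 26, 85 and 90, 18 and 25, and 93 and 55, and without a filter on low values 1, 3, 3 and 0. The cause was not tested. Median centering gave -0.042 for Pdgfrb in M-LMSCs against A-LMSCs. Leaving out each library in turn gave, for PM-LMSCs against A-LMSCs, -0.136 to 0.104 for Pdgfa, -0.0112 to 0.157 for Pdgfc and -0.352 to 0.0406 for Vegfc. For M-LMSCs against A-LMSCs it gave -0.114 to 0.0163 for Pdgfra, -0.0654 to 0.0792 for Pdgfrb, -0.0197 to 0.272 for Vegfa and -0.456 to 0.312 for Vegfc. For M-LMSCs against PM-LMSCs the range was -0.228 to 0.0133 for Pdgfa, -0.175 to 0.459 for Vegfb and -0.30 to 0.468 for Vegfc. For both later stages it was -0.21 to 0.0813 for Vegfa and -0.306 to 0.078 for Vegfc. The fit on only the libraries compared has no counterpart for both later stages, which use all 6. Depth limits Pdgfb (5 to 22 implied fragments) and Hgf (31 to 88).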
